A study of Mus musculus with 8 samples.

Results

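Small nucleolar RNAs (snoRNAs) and small Cajal-body RNAs (scaRNAs) were examined in RNA from the lateral ganglionic eminence (LGE), the embryonic ridge of the ventral forebrain that gives rise to striatal projection neurons. The members are all rows of the deposited table whose Ensembl gene type is snoRNA or scaRNA, which gave 83 of 16913 rows, 70 snoRNA and 13 scaRNA. Tissue came from mouse embryos at embryonic day 14.5, of mixed C57BL/6J and CD1 stock, with 4 samples per genotype. Controls were littermates of genotype Dlx5/6-Cre;Meis2F/+, so they carried the Cre driver and 1 floxed Meis2 allele and are not wild type. The conditional knockout, Meis2-CKO, was Dlx5/6-Cre;Meis2F/F, in which the same driver recombines both alleles in Dlx-expressing cells while other cells of the dissected tissue keep the gene. The question put to these rows was whether their levels differed between the genotypes when Meis2, a homeodomain transcription factor gene, was removed. The values are the authors' mean expression signal per genotype, in a unit that the header does not name, together with the authors' log2 fold change and p-values. Values of single libraries were not used here, so no spread between embryos stands beside any value, and whether a mean rests on 1 library or several is not shown. Nothing in the labels says whether each sample is 1 embryo or a pool, and in bulk tissue fewer cells of a type and less RNA per cell cannot be told apart.

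As background, snoRNAs guide the chemical modification of ribosomal RNA in the nucleolus, and scaRNAs do the same for spliceosomal RNAs in Cajal bodies. H/ACA RNAs direct pseudouridylation with the enzyme dyskerin and end in an ACA box a few bases before the 3′ end, whereas C/D RNAs direct 2′-O-methylation with fibrillarin and carry a C box near the 5′ end and a D box near the 3′ end. In mammals most are cut out of introns of a host gene, often a gene for a ribosomal protein or translation factor, and are trimmed to their mature ends. They have no poly(A) tail and are about as long as a sequenced fragment, so a standard RNA-seq library holds few of their reads.

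Meis2 itself, the targeted gene, had an authors' mean of 204 in control against 140 in the knockout and fell (adjusted p = 0.00195 in the authors' deposited table). The 10 markers of the LGE were all listed, with authors' means that summed to 974 in control and 1004 in knockout. Of the 10, 4 passed the test, against 0.78% of all rows. The sum is led by the markers with the highest means and does not show which single markers were higher or lower. Markers of other sources were present as well: the authors' means of 4 red blood cell genes summed to 2689 and 2704, those of 4 pallial genes to 134 and 155, and those of 3 medial eminence genes to 25.4 and 28.4, in control and Meis2-CKO. The 2 endothelial genes summed to 28.2 and 29.2 and the 2 microglial genes to 7.58 and 8.38, and no gene of any list was listed at 0. Their part in the results on small RNAs was not tested. No member lay on the Y chromosome and 2 lay on the X chromosome; embryo sex is not labelled.

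Of the 83 members, 42 passed an adjusted p of 0.05 in the authors' deposited table, against 0.78% of all rows. The split was 17 higher in Meis2-CKO, where 0.237% of all rows passed, and 25 lower, where 0.544% passed. Among snoRNAs, 36 of 70 passed, and among scaRNAs 6 of 13. Under the stricter Benjamini-Yekutieli adjustment 14 were higher, against 0.171% of all rows, and 22 lower, against 0.455%. The called members did not share a direction, and most of them were listed at exactly 0 in 1 genotype. All 25 that fell were listed at 0 in Meis2-CKO, and 13 of the 17 that rose were listed at 0 in control. Only 4 called members were above 0 in both genotypes, and all 4 rose. Against a mean of 0 with unknown depth no fold can be given, so the deposited log2 fold changes of such members are not printed. Of the powers of 2 tried as a constant added to both means, 0.125 came closest to the deposited values, which equal the log2 ratio of the means so raised to within 0.0157 on the log2 scale for all 83 members, and their size follows from that constant. The median deposited log2 fold change was 0.07 over the 83 members and 0.01 over all rows, with 44 members above 0. Among the other gene types counted, miRNA came nearest, with 13 of 28 rows (46.4%), while 0.344% of protein-coding rows passed.

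**Figure D1:**
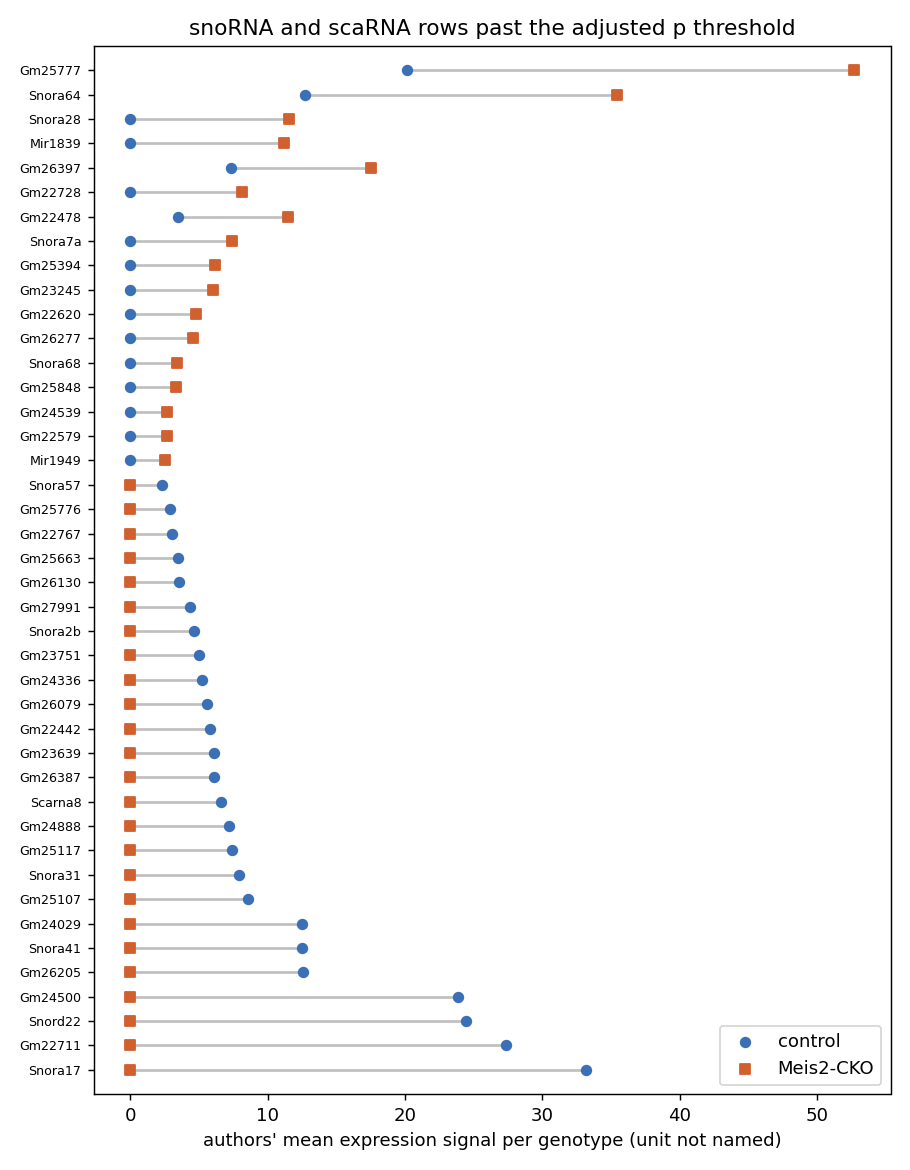
Authors' mean expression signal in control (blue circles) and Meis2-CKO (orange squares) for the 42 called snoRNA and scaRNA rows, ordered by the difference of the means; the lines join the 2 genotypes of a member and carry no error. The 25 rows at the bottom sit at 0 in Meis2-CKO, and of the 17 at the top all but 4 sit at 0 in control.

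The largest fall was that of Snora17, an H/ACA snoRNA (ENSMUSG00000077192), with an authors' mean of 33.2 in control against 0 in the knockout (adjusted p = 7.14e-38 in the authors' deposited table). It lies on the minus strand of chr2:26639190-26639321 (GRCm38). No gene that spans it was found in the annotation used, in a search that left out most small-RNA genes and a few minor gene types. On the same strand, at chr2:26637847-26637985, lies Snora43, another H/ACA snoRNA, whose row the table labels Snhg7. Snora43 stood at 3.89 in control against 9.13 in the knockout and did not pass (adjusted p = 0.297 in the authors' deposited table). The 2 neighbours thus had means that differed in opposite directions. The Snora17 sequence is shown as the member with the largest fall and that of Snora64 as a called H/ACA member measured in both genotypes; capitals mark the ACA box near the 3′ end.
Snora17: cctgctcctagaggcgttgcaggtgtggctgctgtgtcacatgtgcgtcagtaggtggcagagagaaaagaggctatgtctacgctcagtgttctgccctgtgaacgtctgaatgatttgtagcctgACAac
Snora64: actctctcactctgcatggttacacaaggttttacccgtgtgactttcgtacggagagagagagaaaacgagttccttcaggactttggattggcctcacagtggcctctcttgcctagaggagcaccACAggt

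Next among the falls were Gm22711, Snord22 and Gm24500. Gm22711 had an authors' mean of 27.3 in control against 0 in the knockout; a second annotated snoRNA gene covers its span on chromosome 11, so its value is uncertain. Snord22, a C/D-type RNA needed for maturation of the small-subunit ribosomal RNA and hosted by the noncoding gene Snhg1, stood at 24.4 in control and 0 in knockout. Its span overlaps an annotated exon of Snhg1, and Snhg1 itself had authors' means of 86.0 and 82.3. Gm24500 stood at 23.9 and 0 and lies antisense to Mtdh. Gm26205, in Rpl6, and Snora41, in an intron of the elongation factor gene Eef1b2, had control means of 12.6 and 12.5 and were listed at 0 in knockout. Snora41 has an annotated copy, Gm23723, that is 97.7% identical and has no row of its own, so its value is uncertain as well. For these 5 rows the adjusted p in the authors' deposited table ran from 4.95e-31 for Gm22711 to 9.8e-14 for Snora41. The remaining 19 called falls had control means from 2.34 (Snora57) to 12.5 (Gm24029) and were all listed at 0 in knockout.

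The rises measured in both genotypes belong to 4 members. Gm25777, in an intron of the nuclear transport gene Ranbp1, stood at 20.1 in control against 52.7 in the knockout (2.62-fold higher, adjusted p = 5.01e-12 in the authors' deposited table). It had the highest mean of all 83 members. Snora64, an H/ACA snoRNA of the ribosomal protein gene Rps2 (chr17:24720772-24720905, plus strand), stood at 12.7 and 35.4 (2.78-fold higher, adjusted p = 1.85e-08 in the authors' deposited table). Gm26397, in an intron of the mitochondrial import gene Tomm20, stood at 7.34 and 17.5 (2.39-fold higher, adjusted p = 0.00469 in the authors' deposited table). Gm22478, antisense to the spliceosome gene Snrnp70, stood at 3.48 and 11.5 (3.31-fold higher, adjusted p = 0.00297 in the authors' deposited table). No host of these passed: authors' means in control and Meis2-CKO were 222 and 234 for Ranbp1, 881 and 877 for Rps2, and 64.6 and 62.5 for Tomm20.

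Rises from a control mean of 0 were led by Snora28, an H/ACA snoRNA in the translation factor gene Eif5, with an authors' mean of 11.5 in Meis2-CKO (adjusted p = 8.33e-13 in the authors' deposited table). Mir1839, typed as a scaRNA although its symbol is that of a microRNA, reached 11.2, and the scaRNA Gm22728, in an intron of G3bp2, reached 8.14. Snora7a, in Rpl32, reached 7.4. The other 9 rows of this kind had knockout means between 2.53 (Mir1949) and 6.16 (Gm25394).

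Some members with high means in both genotypes did not pass. Gm23262, in the translation factor gene Eif4g2, had authors' means of 31.5 in control against 38.6 in the knockout. Snora34, in an intron of Kansl2, stood at 30.2 and 23.3, Gm24455, in Taf1d, at 9.39 and 16.5, and the C/D RNA Gm25835, in an intron of Eif4a1, at 11.6 and 12.9. Adjusted p in the authors' deposited table was 0.395 for Gm24455 and 1 after rounding for the other 3. Snora73a and Snora73b, H/ACA RNAs that act in processing of the small-subunit ribosomal RNA rather than as ordinary guides, stood at 4.89 and 2.28, and at 10.04 and 8.06, in control and knockout. Rnu3a, the nucleolar RNA that acts in the first cleavages of the ribosomal RNA precursor, was listed at 0 in control and 0.325 in knockout, and a second annotated gene covers its span. Over the 38 members above 0 in both genotypes, 26 had a higher mean in Meis2-CKO and 12 a lower one, with a median log2 ratio of 0.31. Over all 16609 rows above 0 in both genotypes that median was 0.00, with 8272 higher and 8303 lower. Of the 38 members 4 passed (10.5%), against 0.397% of all rows above 0 in both; all 4 were higher, where 0.0903% of those rows passed, and none lower, where 0.307% did. Since all 25 called falls had a mean of 0, this set leaves them out by construction, and its direction is a description only.

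The 13 scaRNA rows held 6 calls (46.2%), against 0.78% of all rows. Of these calls 2 were higher, where 0.237% of all rows passed, and 4 lower, where 0.544% passed. Every scaRNA call had a mean of 0 in 1 genotype, and of all 304 rows at 0 in 1 genotype 66 passed (21.7%). Besides Mir1839 and Gm22728, the called rows were Scarna8 (authors' control mean 6.61), Gm22442 (5.79), Gm23751 (4.98) and Gm22767 (3.04), each listed at 0 in Meis2-CKO. The last 3 lie in introns of the chromatin remodeller genes Chd3 and Chd4 and of Ppp1r8, in that order. The other 7 were above 0 in both genotypes and did not pass. Gm23119 stood at 3.78 in control and 7.59 in knockout, Gm22009 at 1.48 and 2.17, and Scarna13 at 2.06 and 0.445. Scarna6 stood at 0.503 and 1.27, Scarna2 at 0.55 and 0.285, Gm25395 at 0.285 and 0.3, and Gm26083 at 0.265 and 0.258. The 6 called scaRNAs were 127 to 165 nt long and the 7 others 140 to 414 nt.

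All calls fell among the shorter members. Members were 124 to 414 nt long, with a median of 137 nt, and called members 124 to 165 nt. Under 170 nt, 42 of 65 members passed (64.6%), and at 170 nt or more none of 18 did, of which 3 had a deposited p under 0.05 before adjustment (authors' deposited table). The boundary of 170 nt was set after the lengths of the calls were seen. Of the 16861 rows of any type that could be given a length, none was shorter than 124 nt. The annotation holds 1558 snoRNA and scaRNA genes, of which 656 are shorter than that and none is listed; 83 of the 902 others are listed. The listed share was 3.85% of annotated genes of 124 to 129 nt, 7.14% at 130 to 139 nt and 18.3% at 140 to 149 nt. It was 33.3% at 150 to 169 nt, 36.4% at 170 to 199 nt and 32.4% at 200 to 299 nt.

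**Figure D2:**
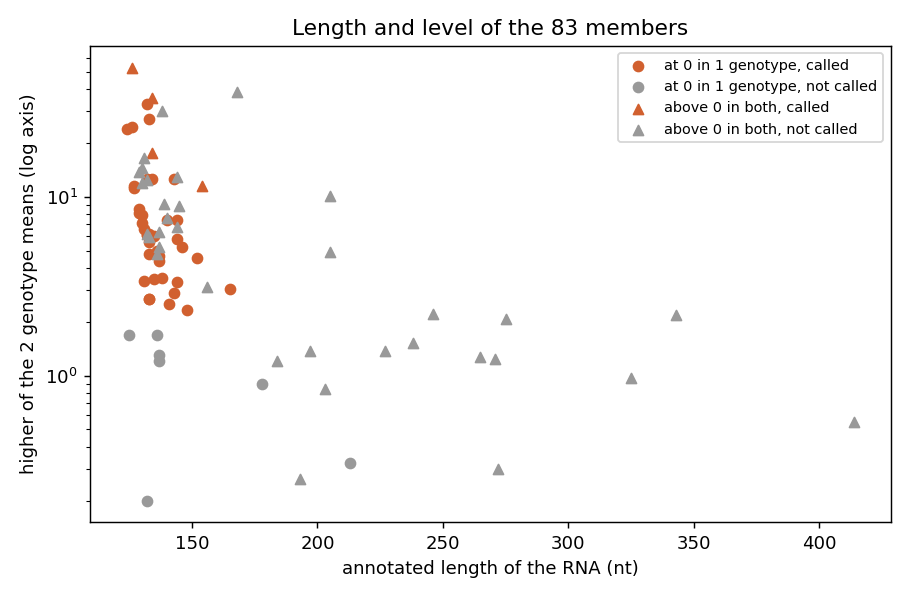
Annotated length (nt) against the higher of the 2 authors' genotype means (log axis) for the 83 members; circles were at 0 in 1 genotype, triangles above 0 in both, and orange marks the called rows. All 42 called rows lie between 124 and 165 nt, and the 18 rows of 170 nt or more are grey.

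In rows of other gene types, too, most calls among short rows lay under 170 nt. Under 170 nt, 30 of 88 such rows passed (34.1%), and from 170 to 299 nt 2 of 242 (0.826%). At 140 to 149 nt the counts were 9 of 13 members and 11 of 20 other rows, and at 130 to 139 nt 23 of 38 and 11 of 25. At 150 to 169 nt they were further apart, with 3 of 5 members and 6 of 41 other rows. Listed at 0 in 1 genotype were 43 of 65 members under 170 nt (66.2%) and 2 of 18 longer ones (11.1%). Other rows showed less of a drop, with 50 of 88 under 170 nt (56.8%) and 110 of 242 from 170 to 299 nt (45.5%). Whether snoRNAs and scaRNAs differ from other rows of their length was not tested.

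**Figure D3:**
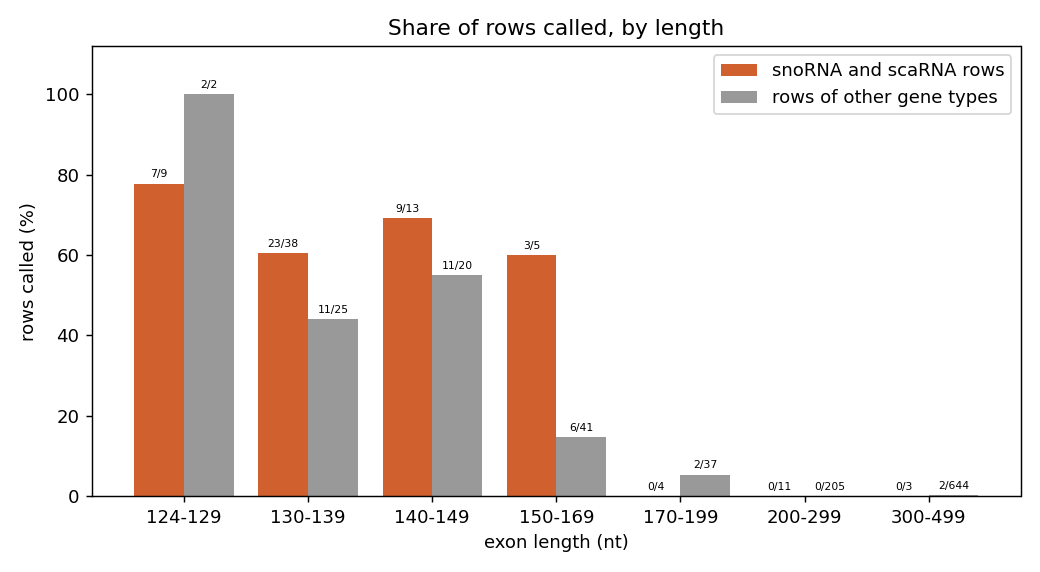
Share of rows called in the authors' deposited table (%) by exon length for snoRNA and scaRNA rows (orange) and rows of all other gene types (grey); the fractions above the bars are called rows over all rows. Below 150 nt at least 44% of either kind was called; at 150 to 169 nt it was 60% of 5 members but 14.6% of 41 other rows, and from 200 nt on no member and under 1% of other rows.

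Level and call were tied among the 45 members listed at 0 in 1 genotype. The 38 called ones had a mean of at least 2.34 in the other genotype, and the 7 not called had at most 1.69, so no member broke the order. Over all 304 rows at 0 in 1 genotype the lowest mean of a called row was 2.27 and the highest mean of a row not called 1.96. Across the 45 members the mean above 0 was lower in longer RNAs (Spearman's rho -0.49, a description over members that share libraries; whether the signal is scaled to length is not stated). The p-value itself was tied to the 2 means. The table holds 110 sets of rows on more than 1 chromosome that have the same pair of means, and in 109 of them the deposited p was the same within 0.01%; in the other set it differed by 0.0376%. An instance among the members is Gm26387 and Gm23639, both 132 nt long and at 6.12 in control and 0 in knockout, with the same adjusted p of 1.92e-06 in the authors' deposited table although their sequences are 47% identical. Whether rows with the same means also shared their single-library values was not examined, since those values were not used. The deposited p-values may therefore not show how far the libraries of a genotype varied around its mean.

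No host gene of a member passed the test. A host, defined as a longer gene that spans the member on the same strand, was found for 73 members, and 59 different hosts of 71 members were listed. Of these hosts 51 are protein-coding. In the authors' deposited table none of the 59 passed, against 0.78% of all rows. None reached 0.05 before adjustment, against 367 of all 16913 rows, so a count of 0 among 59 is near the share over all rows. The log2 fold changes of the hosts lay between -0.21 and 0.27, with a median of 0.02. Of the 71 members inside them 35 were called. Within introns only lay 36 members, 22 of them called; 35 overlapped an exon of a host transcript that is neither coding nor UTR there, 13 of them called; 2 overlapped an annotated UTR, and 10 had no host. Of the 14 members in ribosomal protein genes 6 passed, and of the 9 in translation initiation or elongation factor genes 3 did. Strand is not stated for the counting, and reads of an unspliced or exonic host transcript cannot be told apart from those of the small RNA inside it.

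**Figure D4:**
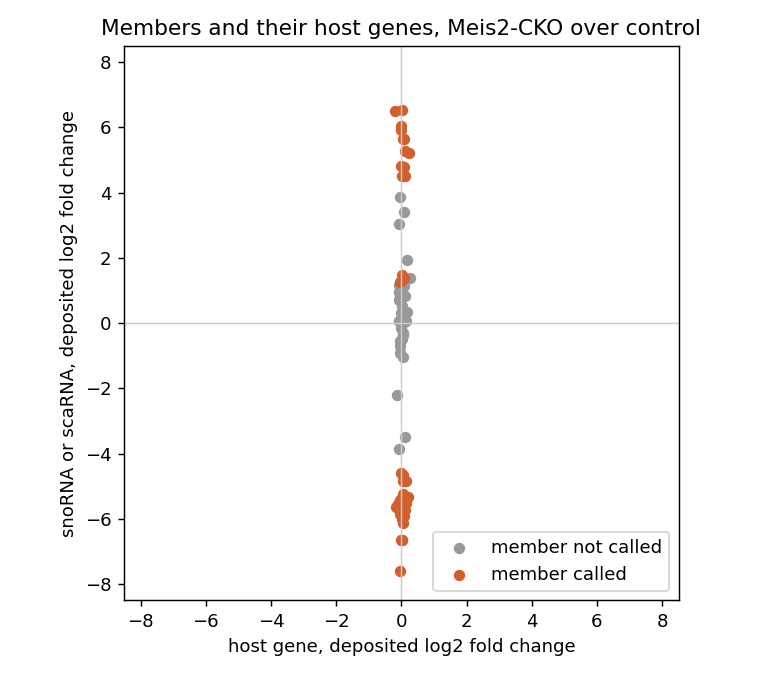
Deposited log2 fold change (Meis2-CKO over control) of each host gene (x axis) against that of the snoRNA or scaRNA inside it (y axis, same scale) for 71 members, with called members in orange. Hosts stay between -0.21 and 0.27; members far above or below 0 are those listed at 0 in 1 genotype, whose height depends on the added constant.

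Members of the same host did not all differ in the same direction. In 8 hosts with 2 or more members, 20 members in all, 4 hosts held both a member with a higher and a member with a lower mean in knockout. No host held both a called rise and a called fall, so each such mixture rests on members that did not pass. Taf1d, a gene of the RNA polymerase I machinery with authors' means of 46.3 in control against 49.3 in the knockout, held 4. Gm22620 (0 and 4.76) and Gm22579 (0 and 2.69) rose, while Gm24455 (9.39 and 16.5) and Gm25791 (1.3 and 0) did not pass. Eif4a1, which encodes a translation initiation helicase and stood at 852 and 860, held Gm24029, which fell from 12.5 to 0, beside Gm22988 (6.8 and 4.77) and Gm25835 (11.6 and 12.9), which did not pass. In Eif4a2, at 316 and 298, Gm24201 stood at 1.69 and 0, Snora81 at 0 and 0.893 and Gm26447 at 8.4 and 13.7, and none passed. In Rpsa, Gm24044 stood at 3.13 and 1.88 and Gm26448 at 0.438 and 0.838, and neither passed. Kansl2 held Snora2b, which fell from 4.63 to 0, and Snora34, at 30.2 and 23.3.

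**Figure D5:**
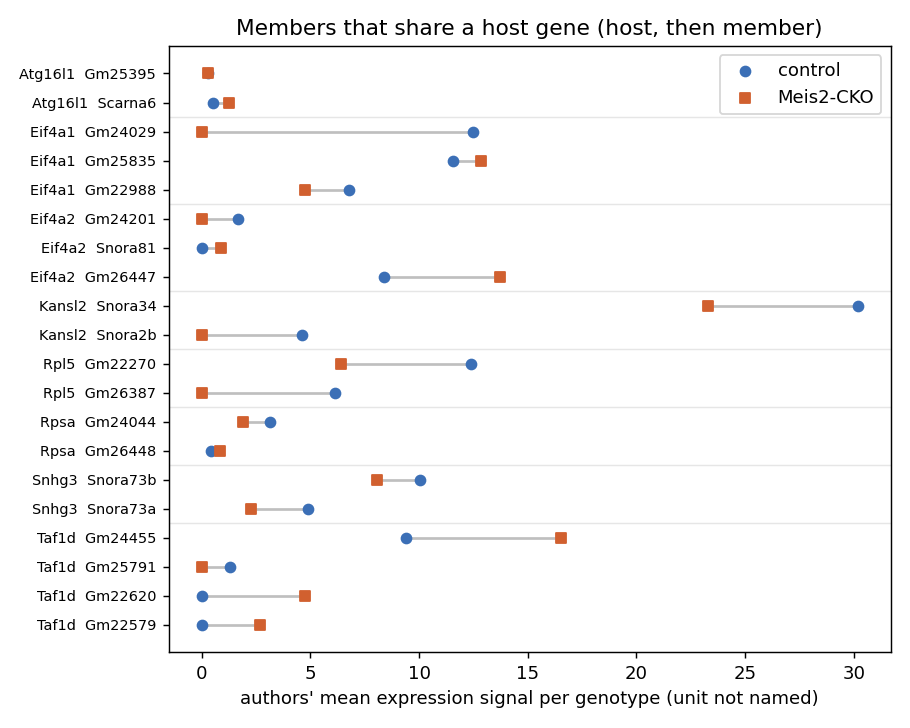
Authors' mean expression signal in control (blue circles) and Meis2-CKO (orange squares) for the 20 members that share a host gene with another member, grouped by host. In Taf1d and Eif4a2 some members are at 0 in control and others at 0 in knockout, but no host holds both a called rise and a called fall.

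Near-identical copies limit some of these rows, since reads of identical copies cannot be told apart. Gm22579, in Taf1d (chr9:15316676-15316808, plus strand), and Gm24539, in an intron of Zfp808 (chr13:62136930-62137062, plus strand), are 100% identical over 133 nt, and both were listed at 0 in control against 2.69 in the knockout. In the ribosomal protein gene Rpl5, Gm22270 (chr5:107905177-107905308, plus strand) and Gm26387 (chr5:107907345-107907476, plus strand) are both intronic and differ at 7 of 132 bases. Gm22270 stood at 12.4 in control against 6.41 in the knockout and did not pass, and Gm26387 fell from 6.12 to 0. In all, 14 members had an annotated copy of at least 95% identity or shared their span with another snoRNA gene, 5 of them called. The first pair is shown for its identity, the second for its small number of differences, and Gm25835 (chr11:69668852-69668995, minus strand) as a C/D RNA; capitals mark the ACA box or, in Gm25835, the C box TGATGA and the D box CTGA.
Gm22579: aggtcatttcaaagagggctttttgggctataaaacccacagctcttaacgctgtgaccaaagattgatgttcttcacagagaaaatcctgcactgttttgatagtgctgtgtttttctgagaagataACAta
Gm24539: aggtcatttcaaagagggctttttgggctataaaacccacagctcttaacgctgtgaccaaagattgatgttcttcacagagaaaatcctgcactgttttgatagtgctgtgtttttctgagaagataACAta
Gm22270: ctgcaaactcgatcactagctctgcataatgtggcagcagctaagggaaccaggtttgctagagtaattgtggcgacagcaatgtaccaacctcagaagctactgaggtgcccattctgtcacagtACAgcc
Gm26387: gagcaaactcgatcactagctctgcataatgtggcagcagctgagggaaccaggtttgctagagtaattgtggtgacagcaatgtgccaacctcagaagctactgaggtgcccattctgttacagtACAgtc
Gm25835: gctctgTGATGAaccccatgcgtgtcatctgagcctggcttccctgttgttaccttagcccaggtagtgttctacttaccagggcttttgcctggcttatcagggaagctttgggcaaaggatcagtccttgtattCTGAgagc

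Sequence class was read from these boxes. On the strand of the RNA, 59 of 83 members carried ACA with 2 to 4 bases after it (71.1%), against 60.9% of the 902 annotated genes of at least 124 nt. TGATGA within the first 20 bases together with CTGA in the last 14 was found in 9 members (10.8%), against 1.22% of those genes. The other 15 had neither, and 7 of them passed. Among those 7 was Snord22, a C/D-type RNA that this exact search missed, so the 9 with both boxes are not all of the C/D members. Of members with the ACA end 35 passed (59.3%), against 0.78% of all rows. Of these 14 were higher, where 0.237% of all rows passed, and 21 lower, where 0.544% passed. Of the 9 with both C and D boxes none passed. Length moved with class: 6 of those 9 were 170 nt or longer, where no member of any class passed, and under 170 nt the counts were 35 of 50 with the ACA end and 0 of 3 with both boxes. The part of length in the difference between classes was not tested. Among the 9, before adjustment the p of 2 was under 0.05 in the authors' deposited table. Those 9 were all above 0 in both genotypes, where 4 of 38 members and 0.397% of all rows passed. A count of 0 among 9 is near that share of all rows. The most unequal of the 9 was Snord17, at 1.52 in control against 0.23 in the knockout, followed by Scarna6. Snord15b, in the ribosomal protein gene Rps3, stood at 4.66 and 8.83.

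No gene for the proteins that make and carry these RNAs passed the test. The 4 core proteins of C/D particles had authors' means of 117 in control against 118 in the knockout for the methyltransferase fibrillarin (Fbl), 164 and 170 for Nop56, 120 and 122 for Nop58, and 122 and 126 for Snu13. Among the 4 of H/ACA particles, the pseudouridine synthase dyskerin (Dkc1) stood at 37.6 and 41.7, Gar1 at 48.2 and 46.5, Nhp2 at 37.4 and 37.8, and Nop10 at 23.9 and 25.3. Cajal body genes included Coil, which encodes the scaffold coilin, at 15.4 and 13.4, Wrap53, whose product brings scaRNAs to the body, at 11.2 and 11.6, and Smn1 at 27.5 and 28.8. All 73 genes of 6 lists (8 core proteins, 15 for assembly, 12 of Cajal bodies, 18 for processing and decay, 20 for ribosome production) were listed. None of the 73 passed, against 0.78% of all rows. None reached 0.05 before adjustment either, against 367 of all 16913 rows, so a count of 0 among 73 is near the share over all rows. The smallest p of the 73 in the authors' deposited table was 0.28 (Usp1). The 73 had deposited log2 fold changes between -0.23 and 0.18 with a median of 0.04, against 0.01 for all rows, and 52 of them lay above 0.

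Summed over the 83 members, the authors' means came to 482 in control against 416 in the knockout, a ratio of 0.863, or 0.088% and 0.0766% of the total signal. Members above 0 in both genotypes summed to 237 and 337, a ratio of 1.42, and those at 0 in 1 genotype to 245 and 78.7. This split uses the means themselves and puts all 25 called falls among the rows at 0, so the ratios of its 2 sets are no separate result.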

How the data were processed

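RNA was measured in 8 samples, 4 per genotype. FastQC 0.11.5, HISAT2 2.1.0, StringTie 1.3.1 and the builds GRCm38.p2 and mm10 are named per the submitters' processing notes, without roles. Which test the authors used for their p-value was not given in the sources used here. Per genotype, the deposited table gives the authors' mean expression signal, of unnamed unit, the authors' log2 fold change, and the authors' p-value and adjusted p-value. Depth is unknown. The table's 8 columns of single-library values have names that match no sample label and were not used here, so no library-level fit, replicate error or left-out sample is given.

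Calls used the deposited adjusted p at 0.05 over all 16913 rows; the adjustment was recomputed and checked on simulated p-values. Positions, lengths, hosts and sequences came from GENCODE M21 (GRCm38). Boxes were sought on the RNA's own strand only: ACA with 2 to 4 bases after it, or TGATGA in the first 20 bases with CTGA in the last 14. Named rows were the 6 largest rises and 6 largest falls of the mean among calls, the 8 highest means, the 4 highest not called, every scaRNA and the members that share a host; other names were chosen after their values were seen. Members and lists were chosen with earlier results of these data known. Alternatives were floors on the mean, a fold minimum, another adjustment, snoRNA rows only, rows above 0 in both genotypes, a pseudocount, centring and scaling. Tables were made in Python 3.11.15 with pandas 2.3.3, scipy 1.17.1 and numpy 2.4.6, and figures with matplotlib 3.10.9.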

Additional observations from a re-analysis of the deposited data

How the results depend on the processing

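The counts of 17 higher and 25 lower members stood against 0.237% and 0.544% of all rows. They became 10 and 17 with a mean of at least 5 in the higher genotype. With members above 0 in both genotypes only they became 4 and 0, against 0.0903% and 0.307% of all such rows. With members of 170 nt or more, an alternative chosen after seeing the data, they became 0 and 0. They stayed at 17 and 25 with a floor of 1 on the mean, a fold of at least 1.5, or adjustment over rows with a mean of at least 1. The Benjamini-Yekutieli adjustment gave 14 and 22, against 0.171% and 0.455% of all rows. With snoRNA rows alone the counts were 15 and 21. Leaving out members with a near-identical copy, also chosen after seeing the data, gave 15 and 22. For the settings without a percentage, the share of all rows is not given here. The ratio of summed signal, 0.863, was 0.787 without Gm25777, 0.87 with both genotypes scaled to the same total, and 1.42 over members above 0 in both. The median log2 ratio of those members, 0.31, was 0.19 with a pseudocount of 1, 0.32 with a mean of at least 1, and 0.31 after centring. The count of protein genes past the threshold was 0 under each alternative run. No paired analysis was possible because the library columns carry no sample name, and for the same reason the fits that leave out 1 sample, edgeR and DESeq2 were not run. Depth is unknown, so no limit can be set on a mean listed at 0.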
